A study of Mus musculus with 2 samples.

Results

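The primary cilium is a single antenna built on a centriole, and neural progenitors and neurons of the developing hindbrain carry one. Its base is closed by the transition zone, a gate of membrane proteins and scaffolds. Intraflagellar transport moves cargo along the axoneme, and the BBSome carries membrane proteins out of the cilium. Joubert syndrome is a ciliopathy with a malformed cerebellum and brainstem. Most of its known genes act at the transition zone, in the ciliary membrane or at the centriole. Here 38 genes of these groups were described, listed by name for their function, with no threshold on a measured value. All 38 were found among the 43346 features with Ensembl gene identifiers. They comprised 16 transition zone genes, 3 Joubert genes of the ciliary membrane, 4 Joubert genes of centrioles and microtubules, 8 intraflagellar transport genes, and 7 genes of the BBSome and its recruiting GTPase Arl6.

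The tissue was hindbrain of healthy B6NCrl mouse embryos at day 16.5, pooled from males and females, with no allele or treatment named in the labels. There was 1 group of 2 biological replicates, each a pool sequenced as 1 library of total RNA, and the pool of replicate 2 came from 37 embryos. With a single group there was no contrast to test, so levels, their spread and the difference between pools are given without p-values. Differences between replicates may be technical as well as biological.

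The libraries held 42467811 and 42017008 expected counts, and the members held between 229 and 11292 counts each. The libraries differed beyond sampling noise, with a chi-square per degree of freedom of 23.9 over 17919 genes. Hindbrain markers were detected for 10 of 11 genes, led by Hoxb5 (106 ± 7.72 TPM, SD, n = 2) and Hoxa5 (80.5 ± 11.8 TPM), while En2 stood at 0.40 TPM. Photoreceptor markers, whose cells carry a modified cilium, were below 1 TPM for all 5 genes, the highest being Pde6b and Nrl at 0.16 TPM each.

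Every one of the 38 genes reached 1 TPM (a measure of transcript abundance that is corrected for length) in both libraries. Of 21474 protein-coding genes, 63.5% did so. Mean levels spanned 40.3-fold, from 2.52 TPM for Cep290 to 102 TPM for Ift20. The median of the 38 genes was 21.1 TPM in replicate 1 and 19.6 TPM in replicate 2, close to the 19.5 TPM median of all detected protein-coding genes. Among the members, 20 lay above that median, 5 above the upper quartile of 51.1 TPM and 5 below the lower quartile of 7.03 TPM. In the ranking of detected protein-coding genes by mean TPM, they ran from percentile 8.59 (Cep290) to 87.3 (Ift20). In bulk RNA a low level can mean few cells of a type or little RNA per cell, and these cannot be told apart.

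**Figure D1:**
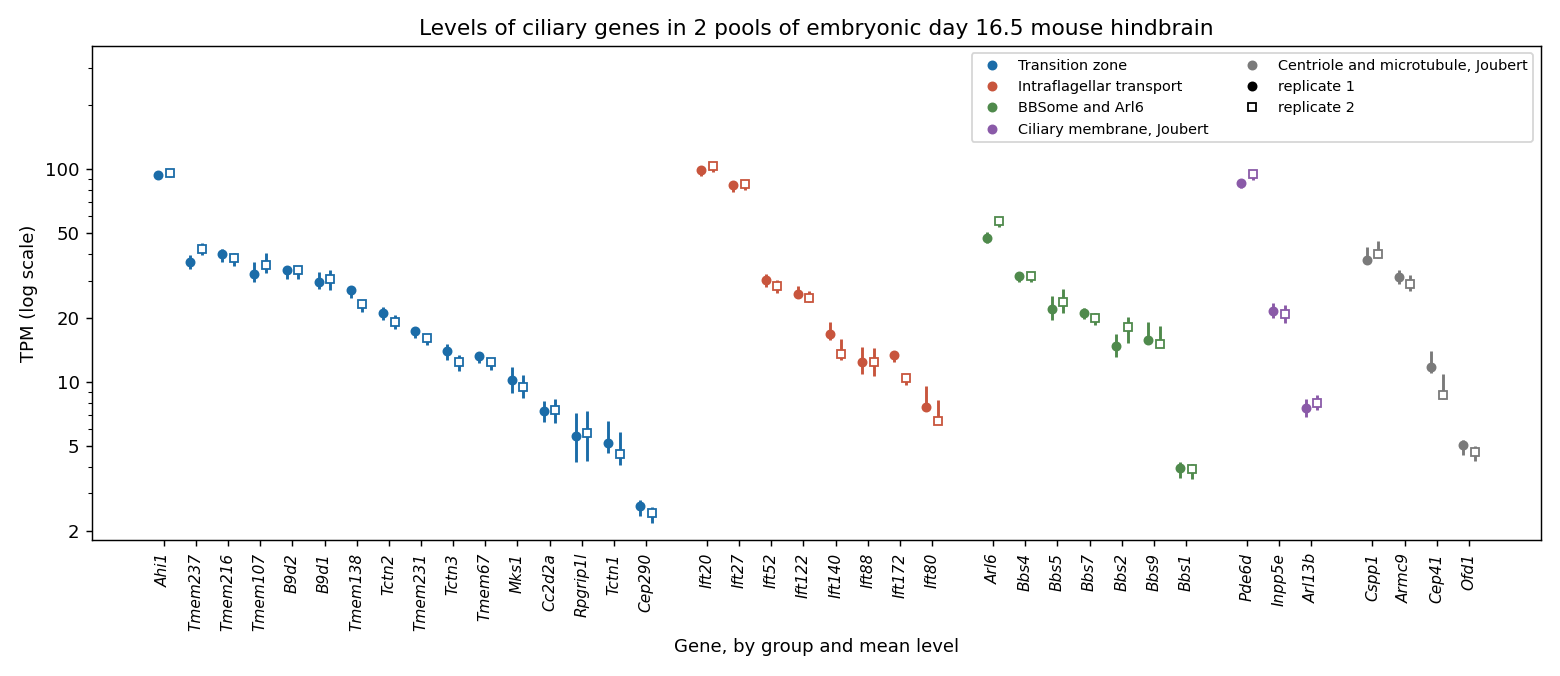
TPM of each of the 38 genes (log axis), grouped by role and ordered by mean; filled circles are replicate 1, open squares replicate 2, and bars the deposited interval on TPM of each library. Ift20, Ahi1, Pde6d and Ift27 stand above the other genes in both pools, and Cep290 and Bbs1 lie lowest.

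Regulatory factor X (RFX) proteins are transcription factors of ciliary genes in animals, and their recognition element, the X-box, is an imperfect inverted repeat. Promoter windows from RefSeq (GRCm38.p6, 250 bases before to 50 after the gene start) were found for 34 of the 38 genes, all but Tmem67, Cspp1, Ift80 and Ift122. The core hexamer GTTGCC, searched on both strands, lay in 20 of 34 windows (58.8%). It lay in 14.1% of all 27025 gene windows and in 15.1% of 10810 windows of detected protein-coding genes. The X-box lay in 12 of 34 (35.3%), compared with 3.56% of all windows and 4.46% of those of detected coding genes. The X-box letters were settled after several patterns had been tried on these windows, so the share of the members is a description. A match is letters in a window and does not show binding.

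The stretches below are shown because they carry the element in genes of 3 groups, the transition zone (Mks1, Tmem237, Tctn3, Ahi1), the BBSome (Bbs7) and the centriole (Cep41). They are written 5′ to 3′ on the gene's strand, with the matched element in capitals. They lie at chr11:87853184-87853211 (plus strand, Mks1), chr1:59120103-59120130 (minus, Tmem237), chr19:40612352-40612378 (minus, Tctn3), chr10:20952561-20952588 (plus, Ahi1), chr3:36613490-36613517 (minus, Bbs7) and chr6:30693859-30693887 (minus, Cep41).
Mks1: cgtctccGTTGCCAGGGGAACgaggcac
Tmem237: agtcagcGTTGCCATGGCGACgcctccg
Tctn3: cccagcgGTTGCCAGGTAACgggaacc
Ahi1: agtctgaGTTACCTAGGCAACagcggca
Bbs7: cgccccgGTTGCCTTGGAAACcggccag
Cep41: gtcccgcGTTGCCCTTGGCAACcattgag
The elements of Mks1 and Tmem237 were centred 17 and 20 bases before the RefSeq start, that of Bbs7 114 bases before it, and that of Ahi1 28 bases after it, within the transcript.

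The X-box matches fell in 3 of the 5 groups. They lay in 8 of 15 transition zone windows, namely Ahi1, Tctn1, Tctn3, Mks1, B9d2, Tmem231, Tmem237 and Tmem107. A further 2 of 3 centriolar genes (Cep41 and Armc9) and 2 of 7 BBSome genes (Bbs1 and Bbs7) held one. None of the 6 intraflagellar transport windows and none of the 3 ciliary membrane windows did, although 4 of 6 and 2 of 3 held the core hexamer. With so few windows a group, the difference between groups was not tested. The X-box letters were settled on these same windows, so which groups and genes hold a match depends on that choice. The level did not separate the genes: the 12 with an X-box had a median of 18.7 TPM (3.92 to 94.8) and the 22 without one 20.7 TPM (2.52 to 102).

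**Figure D2:**
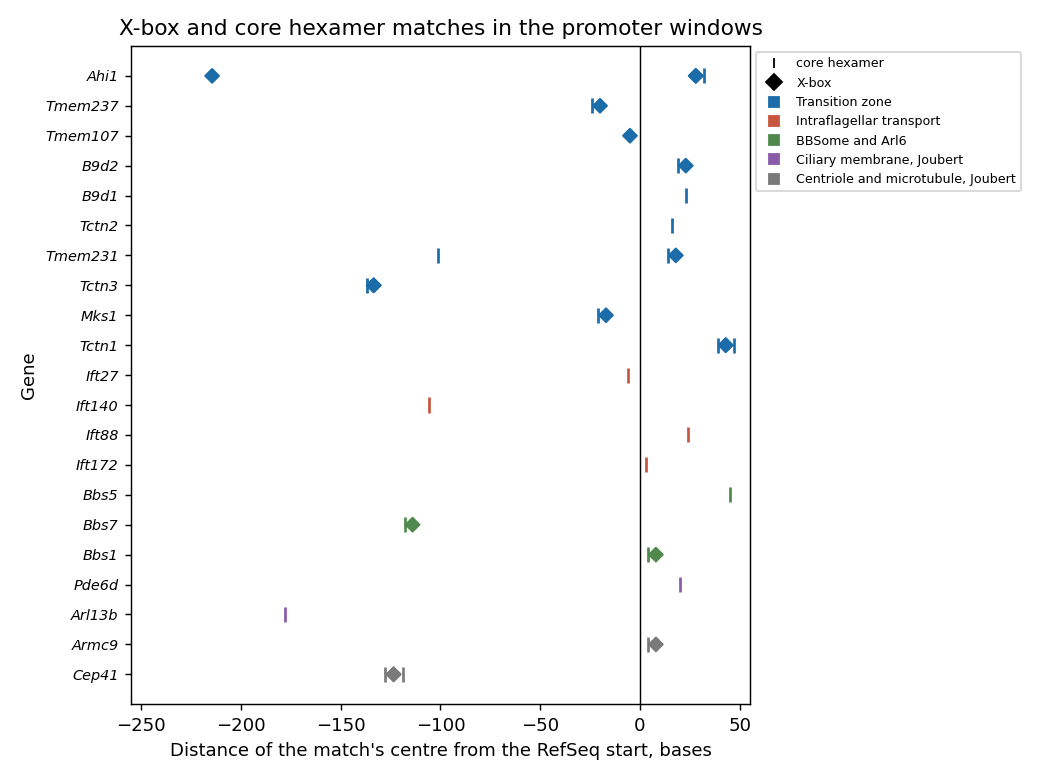
Position of each match in the RefSeq promoter windows (x axis, bases from the gene start) for the 21 genes with a core hexamer (ticks) or an X-box (diamonds), coloured by group. Diamonds are seen for 8 transition zone genes and for none of the intraflagellar transport genes, with X-box letters that were settled on these windows.

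Among the scaffolds of the transition zone, Ahi1 stood far above the rest. Ahi1 (ENSMUSG00000019986.12, GRCm38 chr10:20952547-21080429, plus strand) encodes jouberin and had 94.05 TPM in replicate 1 and 95.6 in replicate 2 (94.8 ± 1.07, SD, n = 2). Cep290 (ENSMUSG00000019971.9, chr10:100487558-100574840, plus strand), which links the microtubules to the membrane of the gate, had 2.62 and 2.42 TPM (2.52 ± 0.141), the lowest of all members when every transcript was counted; over protein-coding transcripts alone Tctn1 was lower, at 2.37 TPM. Rpgrip1l, a scaffold at the base of the gate, had 5.59 and 5.74 TPM, and Cc2d2a, a coiled-coil and C2 domain protein of the same module, 7.31 and 7.38 TPM. In both pools the interval of Ahi1 lay above those of Cep290, Rpgrip1l and Cc2d2a.

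The B9-domain proteins B9d1, B9d2 and Mks1 form one soluble complex of the gate, yet their levels were unequal. B9d2 had 33.5 TPM in both replicates, and B9d1 29.6 and 30.5 TPM. Mks1 had 10.3 and 9.50 TPM, with intervals below those of both partners in each library. The tectonics, secreted or membrane-bound proteins of the same gate, also differed: Tctn2 had 21.1 and 19.2 TPM, Tctn3 13.9 and 12.4 TPM, and Tctn1 5.18 and 4.61 TPM.

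The transmembrane proteins of the gate were mostly above 20 TPM. Tmem237 had 36.7 and 42.2 TPM, Tmem216 39.8 and 38.2 TPM, Tmem107 32.3 and 35.5 TPM, and Tmem138 27.1 and 23.3 TPM. Tmem231 was lower at 17.5 and 16.2 TPM, and so was Tmem67, the receptor-like meckelin, at 13.2 and 12.4 TPM. Tmem216 and Tmem138 are neighbours on chromosome 19, on the same strand, at chr19:10533865-10556238 and chr19:10570478-10577362. Over the 16 genes of the gate, 8 had a mean above 20 TPM and 5 a mean below 10 TPM, a 37.6-fold range.

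The Joubert genes of the ciliary membrane form a short chain of function: the GTPase Arl13b, the prenyl-binding carrier Pde6d, and its lipidated cargo Inpp5e, a phosphoinositide phosphatase. The carrier Pde6d had 86.5 and 94.6 TPM (90.55 ± 5.73, SD, n = 2). Inpp5e had 21.6 and 20.9 TPM and Arl13b 7.55 and 8.01 TPM, so the 3 genes lay in separate parts of the range. The centriole and microtubule genes ran from Cspp1, a microtubule-binding protein, with 37.5 and 39.9 TPM, through Armc9 with 31.0 and 28.8 TPM and Cep41, needed for tubulin glutamylation, with 11.8 and 8.71 TPM, to Ofd1, a protein of distal centrioles and centriolar satellites encoded on the X chromosome, with 5.06 and 4.71 TPM.

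Intraflagellar transport runs on a pair of complexes, IFT-B for outward and IFT-A for return movement. The highest members were small IFT-B subunits. Ift20 (ENSMUSG00000001105.11, chr11:78536361-78541737, plus strand), which also works at the Golgi, had 99.2 and 104 TPM (102 ± 3.37, SD, n = 2), and the Rab-like GTPase Ift27, which binds the BBSome pathway, had 84.0 and 85.2 TPM. The other IFT-B members followed well below: Ift52 had 30.3 and 28.2 TPM, Ift88 12.5 and 12.4 TPM, Ift172 13.3 and 10.4 TPM, and Ift80 7.65 and 6.56 TPM. The IFT-A members Ift122 and Ift140 had 26.0 and 24.7 TPM, and 16.8 and 13.6 TPM. These 8 genes spanned 14.3-fold, with 4 above 20 TPM and Ift80 alone below 10 TPM.

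In the BBSome the recruiting GTPase was the most abundant. Arl6 (ENSMUSG00000022722.14, chr16:59612949-59639391, minus strand) had 47.5 and 57.2 TPM (52.4 ± 6.87, SD, n = 2). Of the subunits, Bbs4 had 31.5 and 31.7 TPM, Bbs5 22.0 and 23.9 TPM, Bbs7 21.1 and 19.95 TPM, Bbs2 14.8 and 18.1 TPM, and Bbs9 15.7 and 15.2 TPM. Bbs1, the subunit that Arl6 binds, was the lowest at 3.95 and 3.89 TPM. Subunits that assemble into a single complex thus differed in transcript level, and the intervals of Bbs1 lay below those of all 6 others in both pools. The level of Bbs9 in replicate 2 lay just under its own deposited interval of 15.3 to 18.3 TPM.

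The 3 groups named for comparison had nearly the same median. The median of the transition zone genes was 19.3 TPM in replicate 1 and 17.7 in replicate 2, that of the transport genes 21.4 and 19.2 TPM, and that of the BBSome genes 21.1 and 19.95 TPM. The log2 ratio of transport over transition zone was 0.13 ± 0.023 (SD, n = 2), that of BBSome over transition zone 0.15 ± 0.031, and that of transport over BBSome -0.02 ± 0.054. The first pair of ratios had the same sign in both libraries, and the last changed sign between them. These offsets of about 1.10-fold were small beside the 13.4-fold to 37.6-fold ranges within the groups. They depended on the use of medians and on which transcripts were counted. Means of log2 TPM gave 0.51 for transport over transition zone, 0.16 for BBSome over transition zone and 0.35 for transport over BBSome. With protein-coding transcripts alone, BBSome over transition zone turned to -0.17 in replicate 1 and -0.08 in replicate 2. Transport over transition zone was 0.02 and -0.09, and transport over BBSome 0.19 and -0.01, so neither had the same sign in both libraries. The ciliary membrane genes had medians of 21.6 and 20.9 TPM and the centriolar genes 21.4 and 18.8 TPM.

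The order of levels was clear over distance and blurred between neighbours. Of the 703 pairs of members, 614 (87.3%) had intervals that did not overlap in either library and pointed the same way. Of the 37 pairs of neighbours in the order by mean, 5 were apart in this way. These steps were Ift27 over Arl6, Arl6 over Tmem237, Tctn2 over Tmem231, Ofd1 over Bbs1, and Bbs1 over Cep290. The genes Ift20, Ahi1, Pde6d and Ift27 therefore formed an upper set in which no neighbours were apart.

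The length of a gene's transcripts went with its level in TPM, which is itself a count divided by length. The 8 members under 1500 bases had mean levels of 23.0 to 102 TPM, with a median of 36.4 TPM. The 14 members over 3000 bases ranged from 2.52 to 94.8 TPM, with a median of 9.83 TPM. Cep290, the longest at 8006 bases, had the lowest level, while Ahi1, at 4635 bases, was the exception with 94.8 TPM. Across the 38 genes, Spearman's rho of length with mean TPM was -0.63, and across detected protein-coding genes it was -0.27. Part of a negative rho is built in, since length enters TPM. Bbs1, at 5581 bases, held 543 and 549 counts, and Bbs5, at 1054 bases, held 520 and 596. Their mean levels were 3.92 and 23.0 TPM. Genes of 1 library are not independent replicates, and these values carry no test.

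**Figure D3:**
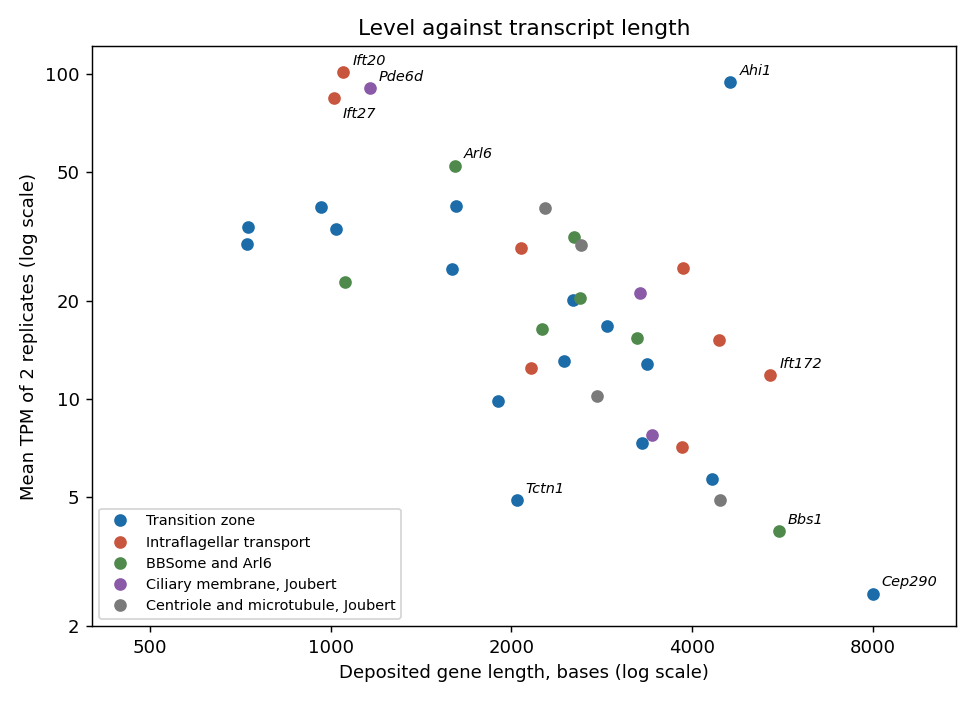
Mean TPM of the 2 replicates (log axis) against the deposited gene length in bases (log axis) for the 38 genes, coloured by group. Levels fall from short genes such as Ift20 to Cep290 at 8006 bases, and Ahi1 at 4635 bases lies apart from the other long genes. TPM is a count divided by length, so the axes are not independent.

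Part of the RNA of these genes was assigned to transcripts not typed as protein-coding in GENCODE M21, such as those that retain an intron. The share exceeded 20% in 12 of 38 members (31.6%), compared with 22.6% of the 13843 protein-coding genes that averaged at least 1 TPM. Transcripts not matched to M21 were not counted in the share. Cc2d2a, with 47.3% of its level in protein-coding transcripts, is therefore not among the 12. The median share was 4.72% in replicate 1 and 5.35% in replicate 2, against 0.70% and 0.96% for all these genes. Among the 29 members with more than 1 listed transcript, the median was 16.9%, against 7.08% for such genes overall. The other 9 members had 1 listed transcript, among them Cep290, Ofd1, Bbs1 and Ift172.

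Cspp1 was the gene most affected among those typed as protein-coding. Its noncoding share was 67.0% and 74.8%, of which intron-retaining transcripts made up 63.6% and 70.5% of the gene's TPM. Its most abundant transcript, of 3383 bases, retains an intron and held 27.5% and 28.9%. Counted over coding transcripts alone, the level of Cspp1 was 11.2 TPM in place of 38.7 TPM. The share was 54.1% and 48.9% in Tctn1, 50.6% and 47.4% in Armc9, and 52.2% and 43.7% in Mks1.

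Some members of the transport and BBSome groups were touched as well. Arl6, Bbs4 and Ift27 had a share of 0% in both libraries, and the last 2 have 1 listed transcript each. An intron-retaining transcript of Ift20, of 1167 bases, held 31.7 and 35.0 TPM, and coding transcripts alone left Ift20 at 68.2 TPM, below Ahi1 at 94.8, Pde6d at 87.0 and Ift27 at 84.6 TPM. Ift88 had a share of 37.5% and 47.3%, of which targets of nonsense-mediated decay, the pathway that degrades transcripts with early stop codons, held 21.7% and 35.4%. Bbs5 had 37.4% and 35.8%, and Bbs2 19.0% and 37.9%. The share was 34.6% and 43.4% in B9d1, 33.2% and 32.9% in Ift140, and 20.5% and 28.8% in Inpp5e. Tctn2 is typed in M21 as a processed transcript as a whole gene, so its share of 100% reflects annotation, and it is counted among the 12.

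**Figure D4:**
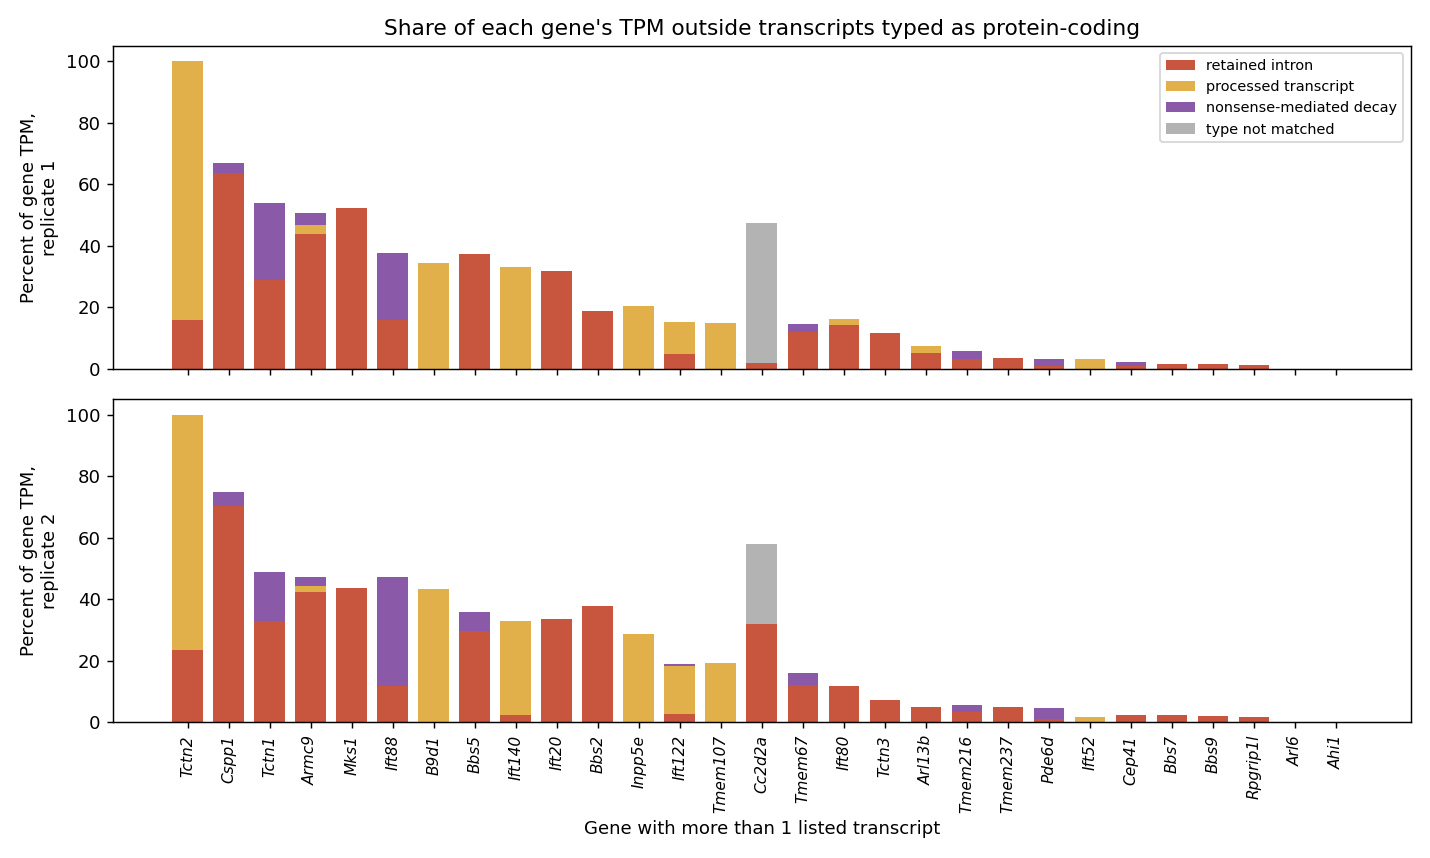
Percent of each gene's TPM assigned to transcripts outside the protein-coding type, in replicate 1 and replicate 2, for the 29 members with more than 1 listed transcript. Bars start at 0 and are split into retained intron, nonsense-mediated decay, processed transcript and transcripts not matched to M21. The last class is drawn but is not counted in the noncoding shares of the text. Cspp1 stands highest after Tctn2, with 67.0% and 74.8%.

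The split among transcripts changed between pools in Cc2d2a. This gene had a steady total of 7.31 and 7.38 TPM, but its intron-retaining share was 1.78% and 32.1%. A transcript of Cc2d2a that was not matched to M21 held 45.7% and 25.8%. Such splits are model estimates, and short or overlapping transcripts share reads.

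Some levels can also hold reads of another gene, since the labels and file headers do not say if strand was used in counting. By annotation, 13 members share exon bases with another gene, 12 of them with a gene on the opposite strand, and 6 share more than 5% of their exon bases with 1 such gene. Inpp5e shares 20.3% of its exon bases with Pmpca, a mitochondrial protease subunit that had 80.3 and 82.3 TPM. Tmem138 shares 31.4% with AC125093.1 and 8.09% with Cyb561a3 (16.1 TPM in both), and Tctn1 shares 19.0% with Hvcn1 (1.41 and 1.10 TPM). Cep290 shares 7.58% with 4930430F08Rik, at 8.62 and 10.9 TPM, and Tmem216 shares 5.15% with Cpsf7, at 36.6 and 25.9 TPM. Tmem237 shares 10.5% with G730003C15Rik, at 1.46 and 1.76 TPM. The part of these neighbours in the levels was not tested.

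The pools differed by less than 2-fold in each of these genes, as in most genes. Of all 13843 genes, 1.51% differed beyond 2-fold, so finding none among 38 is near that share. The log2 ratio of replicate 2 over replicate 1, from counts scaled with edgeR's TMM, ran from -0.35 to 0.30 with a median of -0.05. The median of all genes was -0.02, and its percentiles 5 and 95 were -0.47 and 0.34. The SD of a member's TPM was 5.05% of its mean at the median, against 6.95% for all genes. Scaled counts and TPM gave opposite signs for 7 members. TPM is also divided by a length that moves with the transcript mix. This does not apply to B9d2 and Bbs1, which are among the 7 and have 1 listed transcript each. The median log2 ratio of all genes was -0.06 by TPM, against -0.02 by scaled counts.

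Deposited intervals did not overlap between pools for 5 members, where 31.4% of all genes had such intervals. Arl6 was higher in replicate 2, with a log2 ratio of 0.30, and so was Pde6d (0.18); 9.07% of all genes stood apart in that direction. Lower in replicate 2 were Cep41 (-0.35), Ift172 (-0.31) and Tmem138 (-0.17), the direction in which 22.3% of all genes stood apart. The members' share was below the background in both directions. Of the BBSome genes, 6 of 7 had a higher scaled count in replicate 2 (median log2 ratio 0.06), while 6 of 8 transport genes (-0.07) and 11 of 16 transition zone genes (-0.06) had a higher one in replicate 1. Of all genes, 46.9% had a higher scaled count in replicate 2. By TPM, 4 of 7 BBSome genes were higher in replicate 2, and 6 of 8 transport and 10 of 16 transition zone genes were higher in replicate 1, where 38.7% of all genes were higher in replicate 2. The signs of these leanings depended on scaling. With spike-in totals all 38 were higher in replicate 2, with group medians of 0.51 (BBSome), 0.38 (transport) and 0.39 (transition zone). The median of all genes moved by 0.45, to 0.43. With TMM and with spike-in totals, the BBSome median lay above that of all genes, and the transport and transition zone medians below it.

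**Figure D5:**
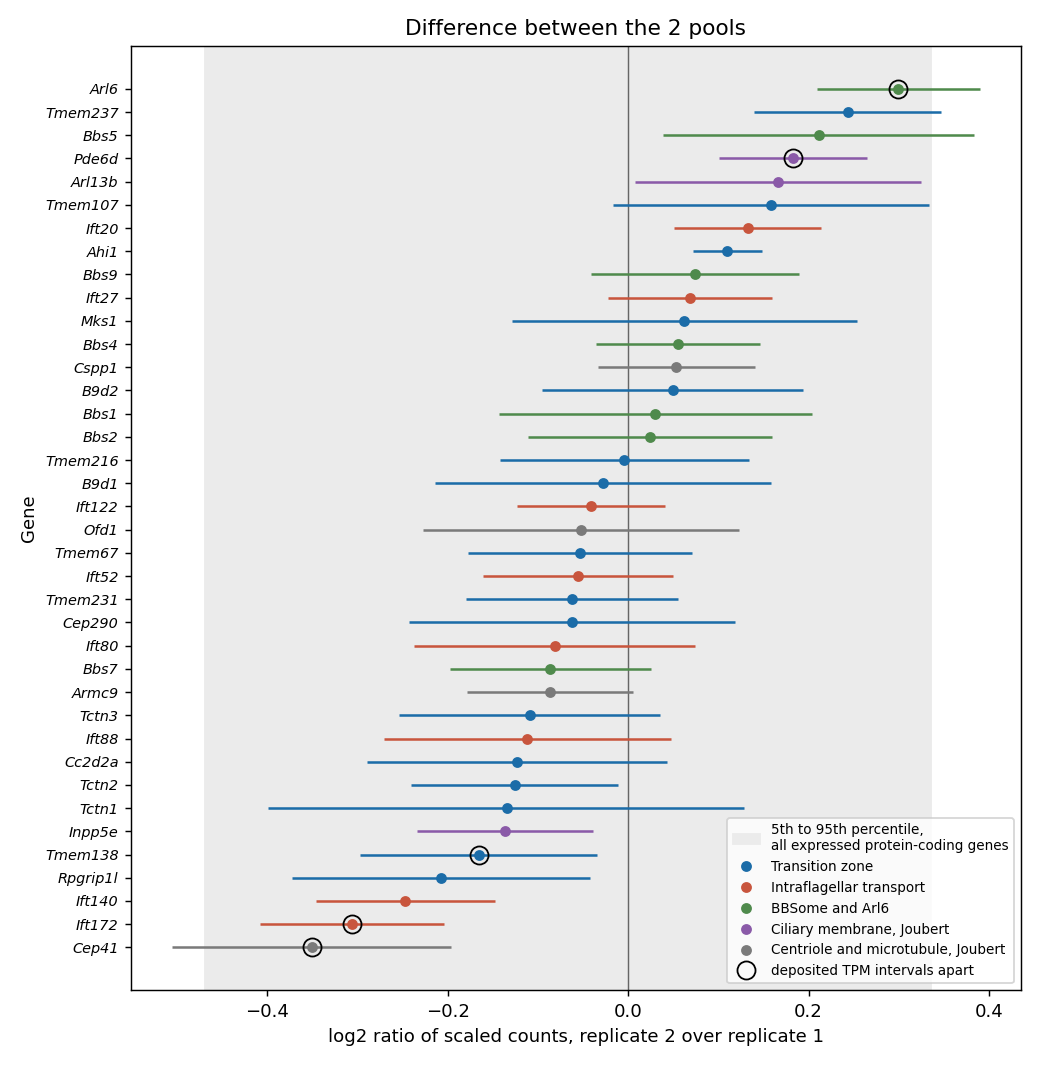
Log2 ratio of replicate 2 over replicate 1 for each of the 38 genes, from TMM-scaled counts, coloured by group, with lines for the 95% counting interval, circles where the deposited TPM intervals were apart, and shading from percentile 5 to 95 of all protein-coding genes averaging at least 1 TPM. No member lies beyond 2-fold; Arl6 has the highest ratio at 0.30 and Cep41 the lowest at -0.35, and with spike-in totals every ratio is above 0.

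Other tissue composition and RNA measures moved with the pools. Of all genes, 22.3% had intervals apart toward replicate 1 and 9.07% toward replicate 2. In lists this short, counts of 1 or 2 genes apart can arise at these shares. Skeletal muscle markers summed to 142 TPM in replicate 1 and 2.34 in replicate 2 (5 of 5 apart, led by Actc1 and Tnnc2), and meningeal fibroblast markers to 753 and 413 TPM (5 of 5 apart, led by Col3a1 and Col1a1). Forebrain markers summed to 28.3 and 6.41 TPM, with 9 of 10 apart, and Lhx2 and Dlx1 were the highest. Choroid plexus markers, led by Ttr and Folr1, summed to 1555 and 1915 TPM, with 2 of 7 apart toward replicate 2 and 1 toward replicate 1. Astrocyte markers, led by Aldoc and Slc1a3, summed to 686 and 843 TPM, with 3 of 5 apart toward replicate 2. Among these, Gfap had 4.03 and 13.0 TPM and Aqp4 12.1 and 26.8 TPM, while Slc1a3 had 222 and 214 TPM. Neuron markers, led by Tubb3 and Gap43, summed to 4461 and 4817 TPM, with 3 of 5 apart toward replicate 2 and Dcx apart the other way. Progenitor and cell cycle markers, led by Cdk1 and Pax6, summed to 174 and 156 TPM; 2 of 6, Top2a and Nes, were apart toward replicate 1, and Pax6 had 34.1 and 36.6 TPM. Endothelial markers, led by Cldn5 and Kdr, summed to 171 and 157 TPM, with 3 of 5 apart toward replicate 1. The log2 ratio also went with length, with a Spearman's rho of -0.41 across the members and -0.35 across all genes. The part of any of these in the difference of Arl6, Pde6d, Cep41, Ift172 and Tmem138 was not tested.

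The other known genes of the same machinery filled out the picture. Of 12 other transition zone genes, all were detected, with medians of 10.7 and 9.17 TPM, from Anks6 at 2.985 ± 0.686 TPM to Rpgrip1 at 33.5 ± 5.38 and Iqcb1 at 47.0 ± 0.0707 TPM (SD, n = 2). Of 10 other Joubert genes, all were detected, with medians of 12.4 and 11.9 TPM, from the kinesin-family Hedgehog regulator Kif7 at 1.395 TPM to Tmem218, which is in both lists, at 22.5 and Cep120, a centriole elongation protein, at 32.4 TPM. The intervals of 2 genes of each list lay higher in replicate 1 and of none in replicate 2. Of all genes, 22.3% and 9.07% stood apart in these directions, so these counts are near the background. The members of the transition zone thus had a higher median than the other genes of the same gate in both pools, and this difference between chosen lists was not tested.

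Of 16 other transport genes, 15 were detected, with medians of 20.4 and 19.5 TPM. Ift46 was the highest at 129 ± 4.51 TPM, above every member, followed by Ift22 at 85.6 ± 1.06 TPM. The lowest, Ttc30a2 at 0.78 TPM, has near-identical copies, so its reads are uncertain. By complex, the 6 IFT-A genes had medians of 19.0 and 16.7 TPM and the 18 IFT-B genes 22.8 and 23.7 TPM, members included. All 6 other Bardet-Biedl genes were detected, with medians of 24.8 and 25.5 TPM, from the chaperonin-like Bbs12 at 4.285 ± 0.0778 TPM to Lztfl1, a BBSome regulator, at 35.5 and the subunit Bbip1 at 36.7 TPM. None of these other transport and Bardet-Biedl genes had intervals apart between pools, where 31.4% of all genes did.

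Cells with motile cilia use the same transport genes, so their markers were read beside the members. Of 18 motile cilium genes, 12 were detected, with medians of 1.79 and 2.06 TPM, and they summed to 68.8 TPM in replicate 1 and 64.9 TPM in replicate 2. Ccdc40 (17.0 ± 2.23 TPM, SD, n = 2) and the master regulator Foxj1 (12.3 ± 1.803 TPM) were the highest, the axonemal genes Hydin and Dnah5 were the lowest at 0.155 TPM each, and none was at 0. The part of motile cilia in the levels of the transport genes was not tested.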

How the data were processed

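Total RNA longer than 200 bases was sequenced from 2 pools of hindbrain, with 10 ng of RNA and spike-ins per library, per the labels. The authors quantified each replicate against mm10 and GENCODE M4, as the deposited notes state. Tool, version and strandedness were not given in the sources used here. Deposited expected counts are estimated reads per gene, and the deposited TPM and FPKM values correct them for effective length, per the file headers. The deposited interval bounds on TPM are treated as scores, and their confidence level is not stated. Shares of single transcripts are the deposited percent values. Shares of a transcript type are the deposited TPM of its transcripts, divided by the summed TPM of all transcripts of the gene.

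Names, types and exons came from GENCODE M21 on GRCm38, joined on identifiers without version, and promoters from RefSeq. TMM scaling of the rounded counts used edgeR 4.0.16 under R 4.3.3 with a prior count of 0.5; DESeq2 1.42.0 gave alternative size factors. Python 3.11.15, pandas 2.3.3 and SciPy 1.17.1 handled tables. Background genes were protein-coding and averaged at least 1 TPM. The ratio step was tested on simulated data.

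The members and lists were chosen with earlier results of these data known. Named were all members, the highest 2 and the lowest gene of each list of related cilium genes, and the highest 2 markers of each cell type (values in the text where a result touches them). En2, Gfap, Aqp4, Dcx, Top2a, Nes and Dnah5 were singled out after seeing their values. The value of 1 marker gene that enters a list's sum is not reported here. The alternatives tried were unit, detection minimum, scaling, prior count, filter, coding transcripts, promoter window and each replicate left out.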

Additional observations from a re-analysis of the deposited data

How the results depend on the processing

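No paired analysis was possible because the labels give a single group. Counting protein-coding transcripts alone gave a mean log2 ratio of -0.033 for transport over transition zone, -0.12 for BBSome over transition zone and 0.092 for transport over BBSome, and the first and the last changed sign between libraries; Tctn2, which has no such transcript, was left out. It moved 19 of 37 levels by more than 1 SD. Means of log2 TPM in place of medians gave 0.51 for transport over transition zone and 0.35 for transport over BBSome. Spike-in totals moved the members' median replicate ratio to 0.40 and reversed Tmem138 (0.28), Ift172 (0.14) and Cep41 (0.100). The median of all genes moved by 0.45 with them. The cause of these moves was not tested. With either replicate left out, the group ratios ranged from 0.12 to 0.15, from 0.13 to 0.17 and from -0.06 to 0.02, the pairs apart from 632 to 639, and all 38 genes stayed detected. At a minimum of 5 TPM in both libraries, 34 were detected. In single libraries, 11 and 13 members had a noncoding share over 20%, an alternative chosen after seeing the data. With 2 pools, the SD rests on 1 difference per gene.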

Other observations

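The motors and signalling proteins that serve the cilium were not among the genes described above. All 8 motor genes were detected, with medians of 27.7 TPM in replicate 1 and 26.7 in replicate 2. Kif3a, a subunit of the outward kinesin that also acts in axonal transport, had 244 and 278 TPM, and its partner Kifap3 113.3 and 112.6 TPM, both above the 38 genes described. The lowest was Kif17, an accessory kinesin, at 3.78 and 3.53 TPM. Kif3a was the 1 motor gene of 8 whose intervals were apart between pools, higher in replicate 2 in TPM. Of all genes, 31.4% had intervals apart.

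Of 8 ciliary signalling and cargo genes, 7 were detected, with medians of 12.4 and 11.4 TPM. Arl3, the GTPase that releases lipidated cargo from Pde6d and acts with Arl13b, had 177 and 209 TPM, with a log2 ratio of 0.28 and intervals apart in the direction of Pde6d. The cargo carrier Unc119b had 31.0 and 26.3 TPM, apart in the other direction. The lowest, the somatostatin receptor Sstr3, had 0.80 and 0.94 TPM. The Hedgehog transducer Smo, named after its value was seen, had 11.4 and 8.17 TPM, with intervals apart. In this list 2 of 8 genes were apart toward replicate 1 and 1 toward replicate 2. Of all genes, 22.3% and 9.07% were apart in these directions.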
